A study of Mus musculus with 18 samples.

Results

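The genes described here are the 3 peroxisome proliferator-activated receptors (PPARs) Ppara, Ppard and Pparg, the coactivator Ppargc1a, and 6 genes known as PPAR targets, namely Pdk4, Cpt1a, Acadl, Acaa2, Angptl4 and Plin2. They were taken by symbol from the probe sets of the array that are annotated to exactly 1 gene. All 10 genes were found, on 23 of the 45101 probe sets in the table, and 18 of those 23 passed the filter on dim values. Each gene is represented by 1 probe set, and all 10 were tested among 12877 genes.

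PPARs are nuclear receptors that bind fatty acids and their derivatives and, paired with a retinoid X receptor, switch on genes of lipid use and storage. Ppara drives fatty acid oxidation in liver, heart and gut, Ppard acts widely including in the intestinal epithelium, and Pparg is the receptor of fat cells that is also strong in differentiated colonocytes. Ppargc1a encodes PGC-1alpha, which coactivates PPARs and other receptors at genes of mitochondrial metabolism, and colonocytes draw much of their energy from oxidising short-chain fatty acids.

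Colorectal RNA of male mice of the outbred ICR stock, 6 weeks old when treatment began, was measured on 18 arrays in 6 groups of 3 that the titles call biological replicates. Normal mucosa came from mice given saline and plain water and taken on day 14, and every other group was injected on day 1 with 10 mg/kg of the colon carcinogen azoxymethane (AOM) and later drank dextran sulphate sodium (DSS), a compound that injures the colonic lining. Inflamed mucosa (day 14) and low grade dysplasia (LGD, day 28) had 1 DSS cycle of 2% on days 8 to 14. High grade dysplasia (HGD) at 6 weeks (day 42) had a further cycle of 1.5% on days 29 to 33, and HGD with active inflammation at 8 weeks (day 56) and carcinoma at 20 weeks (day 140) also had 1.5% on days 50 to 54. All normal mucosa is from day 14, so after week 2 stage and age differ together, and effects of AOM and of DSS cannot be told apart.

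Values below are log2(signal + 16), where the signal is the deposited intensity of a probe set, so a difference of 1 is a doubling for bright genes and understates the change of dim ones. A change is called when the adjusted p of limma's moderated test, adjusted over all genes tested by the Benjamini-Hochberg method, is under 0.05, and the values after ± are standard errors (SE) of that fit with n = 3 arrays per group. Array medians lay between 55.7 and 57.8 on the linear scale. In LGD replicate 2 the 3' to 5' ratio of the Gapdh control probe sets was 1.63 on the log2 scale, against -0.08 to 0.16 on the other 17 arrays (a measure of RNA integrity). The general epithelial markers, such as Epcam and Krt8, fell in inflamed mucosa for 12 of 12 genes, with a median log2 change of -3.08, and by limma 0 of 12 were called in any later stage. Their summed signal was 61193 to 65524 on the normal arrays, 1315 to 28734 on the inflamed ones and 48347 to 72217 later. In inflamed mucosa 7 of 8 macrophage, 7 of 7 neutrophil and 8 of 8 endothelial markers rose, while 8 of 10 markers of mature colonocytes fell. The tissue is a mixture, so fewer cells of a type and less RNA per cell cannot be told apart.

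More of the 10 genes were called against normal mucosa in inflamed mucosa than in any later stage. There 5 fell (Ppara, Ppard, Pparg, Ppargc1a and Cpt1a) and 2 rose (Angptl4 and Plin2). Over all genes tested 24.3% fell and 22.6% rose in the same comparison. The median change of the 10 genes in inflamed mucosa was -0.59, against 0.01 over all genes. Scaling arrays to the epithelial markers instead turned or ended the 5 falls in inflamed mucosa. That scaling raises every gene there by 3.10, so it turns any smaller fall whatever the gene. The part of epithelial loss in these falls was not tested. In LGD 3 of 10 fell and 0 rose (3.08% and 2.61% of all genes), in HGD at 6 weeks 1 fell and 0 rose (0.52% and 0.621%), in HGD at 8 weeks 4 fell and 0 rose (6.42% and 4.84%), and in carcinoma 1 fell and 0 rose (0.575% and 0.326%). Ppara is among the falls in every stage and is the only gene of the 10 called in HGD at 6 weeks and in carcinoma. Its probe set passed the filter only through its 3 normal arrays, so its place in these counts is tied to the filter. Without LGD replicate 2 the LGD count was 2. By limma's F test 9 of the 10 genes differed among the 6 groups, all but Pdk4, against 45.3% of all genes tested. These comparisons share the 3 normal arrays, and 3 arrays per group limit the precision.

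**Figure D1:**
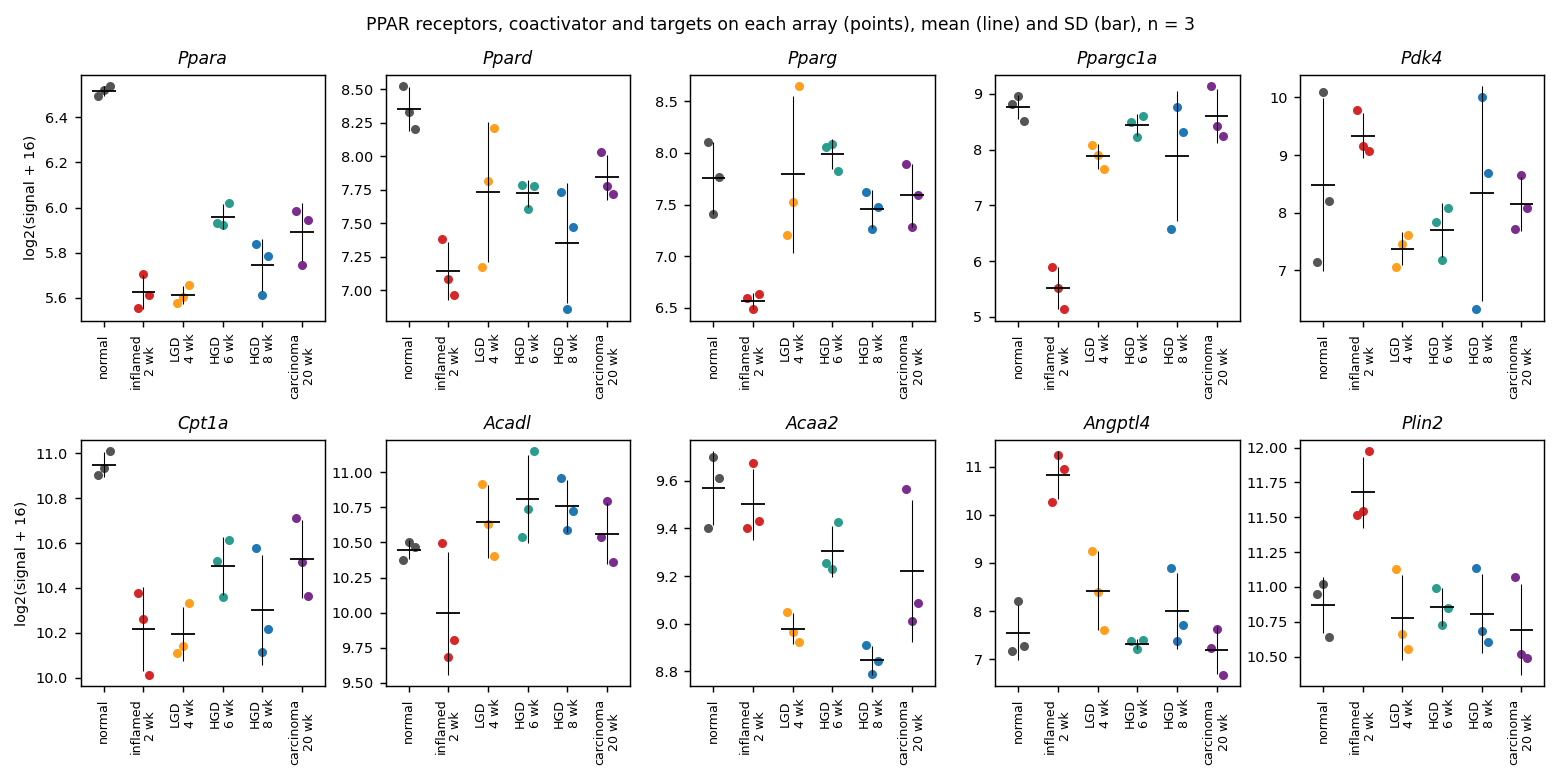
Values of each of the 10 genes as log2(signal + 16) on the y axis by group on the x axis, with 1 point per array, the group mean as a line and the SD (n = 3) as a bar, and with a y axis of its own in each panel. Ppargc1a is lowest and Angptl4 highest in the 3 inflamed arrays, while all 3 normal arrays lie above every other array for Ppara and Cpt1a.

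Of the receptors, Ppara was the only one called lower in all 5 stages. Its normal arrays read 6.49, 6.52 and 6.54, the inflamed ones 5.55, 5.71 and 5.61, and the LGD ones 5.58, 5.61 and 5.66. HGD at 6 weeks read 5.93, 5.92 and 6.02, HGD at 8 weeks 5.84, 5.61 and 5.78, and carcinoma 5.99, 5.74 and 5.95. All 15 arrays of treated mice thus lay below the 3 normal ones, by a narrow margin on a dim probe set. The log2 change was -0.89 ± 0.09 in inflamed mucosa (limma adjusted p = 3.10e-06), -0.90 in LGD (4.08e-04), -0.56 in HGD at 6 weeks (0.0115), -0.77 in HGD at 8 weeks (5.06e-04) and -0.63 in carcinoma (0.00491).

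The Ppara probe set passed the filter only through its 3 normal arrays, since every other array lay under the table median of 6.18, so among genes that pass it had to be higher there. Without the filter, over 18193 genes, limma's adjusted p ran from 1.66e-06 in inflamed mucosa to 0.00676 in HGD at 6 weeks. The remaining 2 Ppara probe sets, which did not pass, were lower as well, by -1.0 and -0.46 in inflamed mucosa and by -0.56 and -0.39 in carcinoma. The call in HGD at 6 weeks was lost without normal replicate 2 (adjusted p = 0.0756), HGD replicate 1 (0.0752) or HGD replicate 2 (0.0825). Beside this, the general epithelial markers changed by -0.07 to -0.30 on average in the 4 later stages and those of mature colonocytes by -0.88 to -2.05, and their part in the Ppara values was not tested.

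Ppard was brightest in normal mucosa, at 8.53, 8.33 and 8.20. The inflamed arrays read 7.38, 7.08 and 6.97, a change of -1.21 ± 0.24 (limma adjusted p = 8.51e-04). HGD at 8 weeks read 7.73, 6.86 and 7.47, a change of -1.0 ± 0.24 (adjusted p = 0.0222). Both groups lay wholly below normal. The call in HGD at 8 weeks was lost without normal replicate 1 (adjusted p = 0.0683), normal replicate 2 (0.0716) or HGD replicate 2 (0.0756). LGD read 7.17, 7.81 and 8.21, HGD at 6 weeks 7.78, 7.61 and 7.78, and carcinoma 8.04, 7.78 and 7.72, with log2 changes of -0.62, -0.63 and -0.51 that were not called (adjusted p = 0.13, 0.169 and 0.275). In LGD the call was gained without replicate 3, with a change of -0.86 (adjusted p = 0.0303).

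The array with the lowest Ppard also had the lowest mean of mature colonocyte markers in LGD (replicate 1, -3.04 against normal), HGD at 8 weeks (replicate 2, -3.49) and carcinoma (replicate 3, -1.17). In inflamed mucosa and HGD at 6 weeks it did not: the inflamed array with the lowest colonocyte markers was replicate 2 (-4.82), and the one with the lowest Ppard replicate 3. Whether colonocyte content accounts for the Ppard values was not tested. A further Ppard probe set was dim, between 5.54 and 5.98 on all 18 arrays, and was not called in any stage, and 1 probe set annotated to several genes was left out.

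Pparg was called lower in inflamed mucosa and was not called in the 4 later stages. It read 8.10, 7.41 and 7.76 in normal mucosa and 6.60, 6.49 and 6.63 in inflamed mucosa, a change of -1.19 ± 0.29 with no overlap (limma adjusted p = 0.00332). In LGD it read 7.21, 7.52 and 8.65, so that the group spans more than the normal one, and it was 1.22 ± 0.29 above inflamed mucosa (adjusted p = 0.00416), a call lost in a fit of these 6 arrays alone (0.0524). HGD at 6 weeks read 8.06, 8.09 and 7.83, HGD at 8 weeks 7.62, 7.26 and 7.48, and carcinoma 7.89, 7.28 and 7.59, all overlapping normal mucosa. HGD at 8 weeks was 0.88 above inflamed mucosa (adjusted p = 0.024), a call lost without inflamed replicate 2 (0.0677), inflamed replicate 3 (0.0514), HGD replicate 1 (0.0607) or HGD replicate 3 (0.0603). Of the adipocyte markers, 4 of 8 passed the filter and Lep, Plin1, Cidec and Cfd did not. In inflamed mucosa 1 of the 4 (Lipe) rose and 1 (Pck1) fell, with a median log2 change of 0.08. Their summed signal was 245 to 580 there against 773 to 1360 in normal mucosa, and fat content was not tested.

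**Figure D2:**
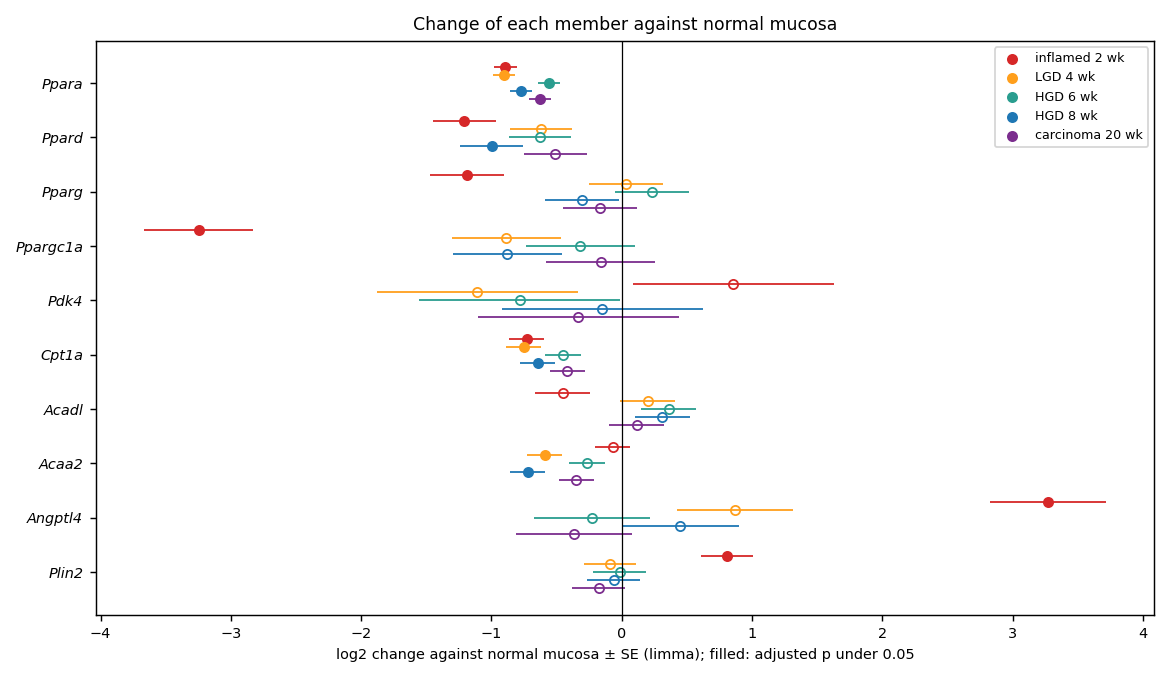
Log2 change against normal mucosa (x axis, ± SE from limma, n = 3 per group) of each gene (y axis) in the 5 stages by colour, filled where the adjusted p is under 0.05. Only Ppara is filled in every stage, and its probe set passed the filter only through its normal arrays. The widest departures are those of Ppargc1a (-3.25) and Angptl4 (3.27) in inflamed mucosa. Scaling to the epithelial markers raises every gene there by 3.10, which turns or ends the falls.

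The coactivator Ppargc1a had the largest fall of the 10 genes. Normal arrays read 8.81, 8.95 and 8.52, and inflamed arrays 5.89, 5.52 and 5.13. The change was -3.25 ± 0.42 (95% interval -4.14 to -2.35), a 9.50-fold difference on the log2(signal + 16) scale (limma adjusted p = 2.84e-05). All 5 of its probe sets fell, with log2 changes of -2.04 to -3.25. In LGD it read 8.09, 7.90 and 7.64, wholly above inflamed mucosa and wholly below normal mucosa. The rise over inflamed mucosa was 2.36 ± 0.42 (adjusted p = 6.26e-04), and the change of -0.89 from normal mucosa was not called (adjusted p = 0.208).

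In HGD at 8 weeks Ppargc1a read 6.57, 8.77 and 8.32. Replicate 1 was the lowest of its group, and without it the change from normal mucosa went from -0.88 to -0.22. The group was nevertheless 2.37 ± 0.42 above inflamed mucosa (limma adjusted p = 5.47e-04). The arrays of HGD at 6 weeks (8.50, 8.22 and 8.60) and carcinoma (9.15, 8.42 and 8.25) overlapped normal mucosa. Replicate 1 of HGD at 8 weeks also had the highest Angptl4 (8.90) and the lowest Pdk4 (6.31) of its group. Its neutrophil markers were 3.64 above normal, against 0.95 and 2.53 on the other HGD arrays of that week. Mature colonocyte markers were at -0.92 on replicate 1, against -3.49 and -1.73 on the others. General epithelial markers were at -0.51, against -0.15 and -0.25. The part of any of these cells in its Ppargc1a value was not tested.

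**Figure D3:**
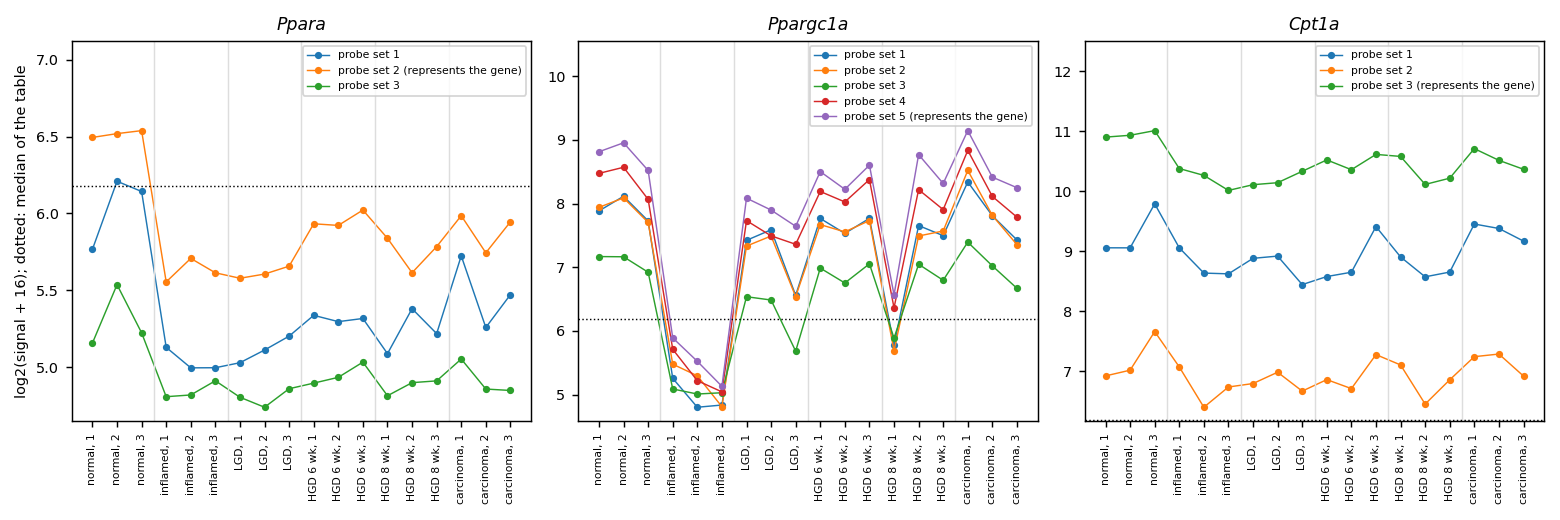
All probe sets of Ppara, Ppargc1a and Cpt1a as log2(signal + 16) on the y axis across the 18 arrays on the x axis, with the table median as a dotted line. The 5 Ppargc1a probe sets drop together in the inflamed arrays and in HGD at 8 weeks replicate 1, and the Ppara probe set that represents the gene is above the median only in normal mucosa.

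Promoter windows of RefSeq (build GRCm38.p6) were at hand for 8 of the 10 genes, in 10 windows of 250 bases upstream of the start. They are shown for Ppargc1a, which fell most, and for Cpt1a and Plin2, a target that fell and one that rose in inflamed mucosa. Capitals mark the half-site AGGTCA on either strand (TGACCT on the other) to which nuclear receptors bind, and in Ppargc1a the half-site ACGTCA of cAMP response elements.
Ppargc1a (chr5:51567726-51567975, minus strand): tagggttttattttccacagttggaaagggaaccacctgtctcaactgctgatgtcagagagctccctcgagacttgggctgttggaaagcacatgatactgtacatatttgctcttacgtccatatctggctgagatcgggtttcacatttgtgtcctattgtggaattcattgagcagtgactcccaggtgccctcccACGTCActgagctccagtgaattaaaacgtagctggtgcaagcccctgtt
Cpt1a (chr19:3323051-3323300, plus strand): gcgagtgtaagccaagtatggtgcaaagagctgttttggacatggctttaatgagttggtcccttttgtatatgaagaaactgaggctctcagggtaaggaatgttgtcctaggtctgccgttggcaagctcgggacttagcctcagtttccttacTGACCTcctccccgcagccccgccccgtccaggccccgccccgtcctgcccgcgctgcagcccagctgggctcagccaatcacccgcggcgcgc
Plin2 (chr4:86670060-86670309, minus strand): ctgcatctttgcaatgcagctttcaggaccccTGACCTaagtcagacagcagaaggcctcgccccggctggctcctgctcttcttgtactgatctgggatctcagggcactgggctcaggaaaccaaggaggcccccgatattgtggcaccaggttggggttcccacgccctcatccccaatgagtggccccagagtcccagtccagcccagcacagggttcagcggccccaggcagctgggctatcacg
AGGTCA was found in 4 of the 10 windows (Cpt1a, Plin2 and 2 of the 3 Pparg windows) and in 14% of all 32851 windows of this length. The direct repeat AGGTCANAGGTCA, the spacing that PPAR pairs prefer, was in 0 of the 10 and in 0.0335% of all windows. ACGTCA was in the Ppargc1a window alone and in 6.47% of all windows. These matches describe the letters of the windows, and binding was not measured.

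Of the targets, Cpt1a fell and Angptl4 and Plin2 rose in inflamed mucosa. The Cpt1a fall is turned when arrays are scaled to the epithelial markers, which raises every gene there by 3.10. Cpt1a, which encodes the carnitine palmitoyltransferase that admits long-chain fatty acids to mitochondria, read 10.90, 10.93 and 11.01 in normal mucosa and 10.38, 10.26 and 10.01 in inflamed mucosa. LGD read 10.11, 10.14 and 10.33, and HGD at 8 weeks 10.58, 10.11 and 10.22. Those of HGD at 6 weeks (10.52, 10.36 and 10.61) and carcinoma (10.71, 10.51 and 10.37) lay below normal mucosa too. The log2 change was -0.73 ± 0.14 in inflamed mucosa (limma adjusted p = 5.06e-04), -0.75 in LGD (0.0103) and -0.64 in HGD at 8 weeks (0.0123), while -0.45 in HGD at 6 weeks (0.108) and -0.42 in carcinoma (0.133) were not called. The remaining 2 Cpt1a probe sets, which may bind related transcripts, were lower by 0.53 and 0.46 in inflamed mucosa without a call (adjusted p = 0.105 and 0.141). Nor were they called later. Their changes were -0.55 and -0.38 in LGD, -0.59 and -0.40 in HGD at 8 weeks, and 0.03 and -0.05 in carcinoma. With the mean of the probe sets the calls in LGD (0.0777) and in HGD at 8 weeks (0.0608) were lost, and the LGD call also without normal replicate 2 (0.0508).

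Acaa2, the thiolase of the last step of mitochondrial fatty acid oxidation, was called in LGD and in HGD at 8 weeks but not in inflamed mucosa. Normal arrays read 9.40, 9.70 and 9.61 and inflamed arrays 9.40, 9.67 and 9.43, which overlap (change -0.07, limma adjusted p = 0.713). It fell in LGD, at 9.05, 8.96 and 8.92 (change -0.59 ± 0.14, adjusted p = 0.0255), and in HGD at 8 weeks, at 8.91, 8.79 and 8.84 (change -0.72 ± 0.14, adjusted p = 0.00838). Both groups were also below inflamed mucosa, by -0.52 (adjusted p = 0.00792) and -0.65 (0.00178). Arrays of HGD at 6 weeks (9.25, 9.23 and 9.43) and carcinoma (9.56, 9.01 and 9.09) overlapped normal mucosa. The LGD call was lost without normal replicate 2 (0.106), normal replicate 3 (0.0814), LGD replicate 1 (0.0681) or LGD replicate 2 (0.0812), and without carcinoma replicate 1 carcinoma was called lower (-0.52, adjusted p = 0.0396). The remaining 2 Acaa2 probe sets were called lower than normal mucosa in LGD and HGD at 8 weeks as well. In inflamed mucosa they were at -0.17 and -0.48 without a call (limma adjusted p = 0.402 and 0.135). Against inflamed mucosa both were called lower in LGD. In HGD at 8 weeks 1 of them was called lower than inflamed mucosa and the other, at -0.37, was not (adjusted p = 0.289).

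Acadl, the long-chain acyl-CoA dehydrogenase, was not called against normal mucosa in any stage. It read 10.38, 10.50 and 10.47 in normal mucosa and 10.50, 9.68 and 9.81 in inflamed mucosa (change -0.45, limma adjusted p = 0.0916), where replicate 1 is as high as normal. Without that array the change was -0.70 and was called (adjusted p = 0.00813). LGD read 10.92, 10.63 and 10.40 and HGD at 8 weeks 10.96, 10.59 and 10.73, both above inflamed mucosa on average (LGD with overlap), by 0.65 (adjusted p = 0.025) and 0.76 (0.0106). The LGD call was lost without inflamed replicate 2 (0.114) or 3 (0.0953) or LGD replicate 1 (0.091) or 2 (0.0581), and the HGD call without inflamed replicate 2 (0.0549). The 6-week HGD arrays read 10.54, 10.74 and 11.15, and carcinoma 10.54, 10.79 and 10.36. A further Acadl probe set did not pass the filter. It was above inflamed mucosa by 0.15 in LGD and 0.18 in HGD at 8 weeks, without a call (limma adjusted p = 0.179 and 0.0803).

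Angptl4, a secreted inhibitor of lipoprotein lipase, had the largest rise of the 10 genes. It read 7.17, 8.21 and 7.27 in normal mucosa and 10.27, 11.25 and 10.95 in inflamed mucosa, a change of 3.27 ± 0.45 (95% interval 2.32 to 4.23), or 9.67-fold (limma adjusted p = 4.56e-05). Its dim second probe set rose too, by 0.84. LGD read 9.25, 8.40 and 7.61, below inflamed mucosa by -2.40 (adjusted p = 8.86e-04). HGD at 8 weeks read 8.90, 7.38 and 7.72, below inflamed mucosa by -2.82 (adjusted p = 2.44e-04). The array with the highest Angptl4 also had the highest neutrophil marker mean in LGD (replicate 1, 5.48 above normal), HGD at 8 weeks (replicate 1, 3.64) and carcinoma (replicate 2, 2.69), but not in inflamed mucosa or HGD at 6 weeks, and the part of these cells was not tested. The HGD arrays at 6 weeks (7.37, 7.21 and 7.39) and carcinoma (7.24, 7.63 and 6.68) overlapped normal mucosa.

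Plin2, a coat protein of lipid droplets, rose less. It read 10.95, 11.02 and 10.64 in normal mucosa and 11.52, 11.54 and 11.98 in inflamed mucosa, a change of 0.81 ± 0.20 with no overlap (limma adjusted p = 0.00422). LGD (11.13, 10.66 and 10.55) and HGD at 8 weeks (11.14, 10.69 and 10.60) were below inflamed mucosa, by -0.90 (adjusted p = 0.00319) and -0.87 (0.0036), and overlapped normal mucosa. The 6-week HGD arrays read 10.99, 10.72 and 10.85, and carcinoma 11.07, 10.52 and 10.49.

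Pdk4, the pyruvate dehydrogenase kinase that spares glucose when fat is burnt, was not called in any of the 10 comparisons. Normal arrays read 7.14, 10.10 and 8.20 and those of HGD at 8 weeks 6.31, 10.01 and 8.68, the widest of the 6 groups. Inflamed mucosa read 9.79, 9.15 and 9.08, a change of 0.86 ± 0.77 (95% interval -0.79 to 2.51, limma adjusted p = 0.387). LGD read 7.06, 7.45 and 7.61, wholly below inflamed mucosa by -1.97, which missed the threshold (adjusted p = 0.0592). Under 3 of 17 alternative ways of processing or fitting the arrays this difference was called. HGD at 6 weeks read 7.84, 7.18 and 8.09, and carcinoma 7.72, 8.64 and 8.08.

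Between stages, LGD was higher than inflamed mucosa for 3 of 10 genes (Pparg, Ppargc1a and Acadl; 19.3% of all genes) and lower for 3 (Acaa2, Angptl4 and Plin2; 17% of all). The same 3 and 3 genes were called in HGD at 8 weeks against inflamed mucosa (20.9% and 18.4% of all genes), and both comparisons share the 3 inflamed arrays. Ppara and Cpt1a were called neither higher nor lower than inflamed mucosa in LGD or in HGD at 8 weeks. Of the 10 genes 0 were called by limma in HGD at 6 weeks against LGD, in HGD at 8 weeks against 6 weeks or in carcinoma against HGD at 8 weeks, where 0% of all genes were called in either direction. At an unadjusted limma p under 0.05 there were 4, 2 and 1 of the 10 genes. Of all genes there were 900, 423 and 1422 (6.99%, 3.28% and 11%).

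**Figure D4:**
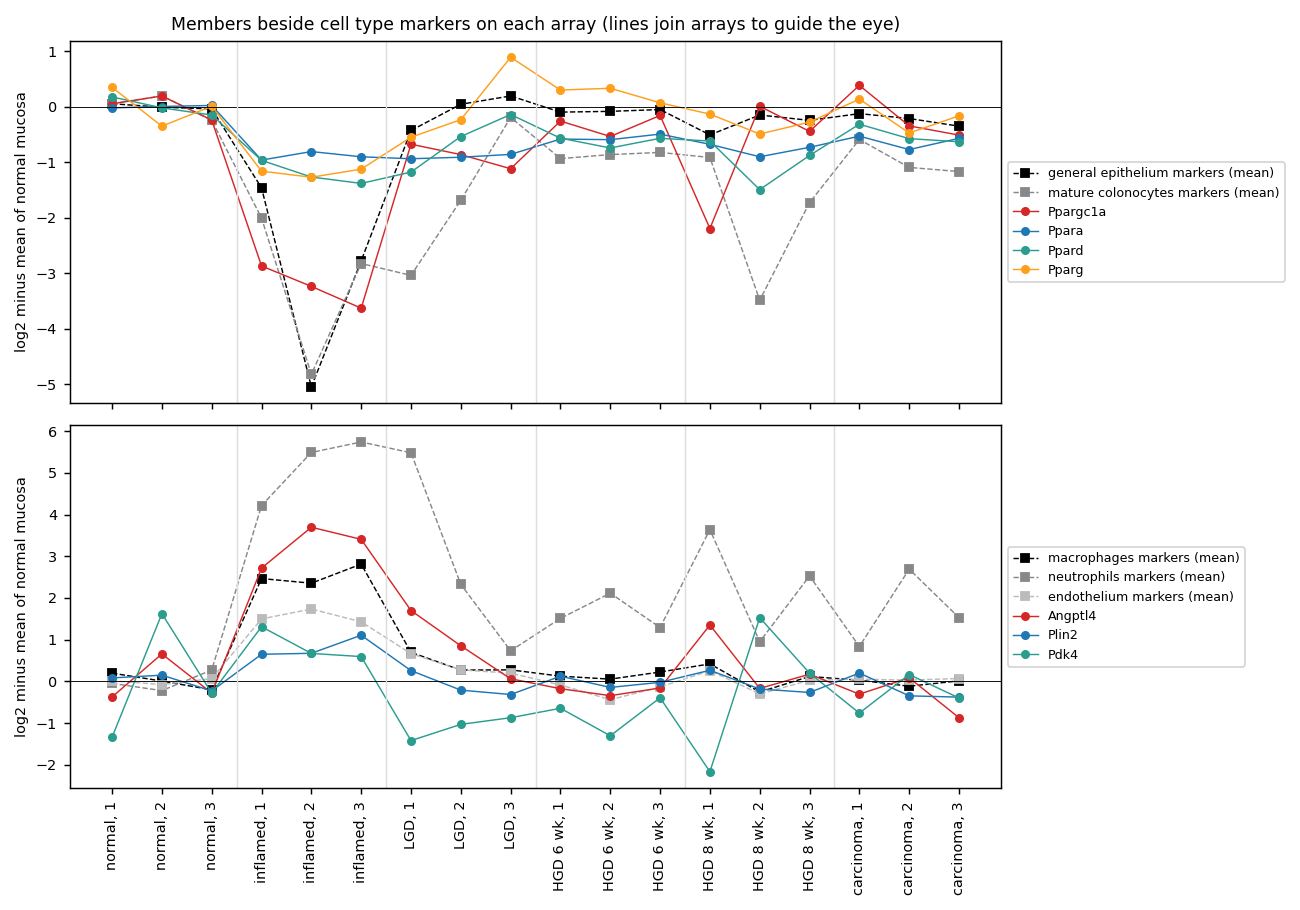
Each array minus the mean of normal mucosa on the log2 scale (y axis) for receptors and Ppargc1a beside epithelial markers (top) and for Angptl4, Plin2 and Pdk4 beside macrophage, neutrophil and endothelial markers (bottom), with the 18 arrays on the x axis. In the inflamed arrays the epithelial mean is at -1.46, -5.05 and -2.78 and Ppargc1a at -2.87, -3.24 and -3.63. In the later stages the epithelial mean lies between -0.51 and 0.19.

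The fall of epithelial markers in inflamed mucosa was uneven between arrays. Against the normal mean the 12 general epithelial markers stood at -1.46, -5.05 and -2.78 in the 3 inflamed arrays. Ppargc1a stood at -2.87, -3.24 and -3.63, Ppard at -0.97, -1.27 and -1.38, and Pparg at -1.16, -1.27 and -1.13. Replicate 2, with the lowest epithelial markers, was also the lowest for Pparg and Acadl (-0.77), while replicate 3 was the lowest for Ppargc1a, Ppard and Cpt1a and replicate 1 for Ppara. The part of epithelial loss in these values was not tested. With each array scaled to the epithelial markers, an alternative chosen after seeing the data that lifts the median of all genes by 3.10 in inflamed mucosa, Ppargc1a was at -0.15 (limma adjusted p = 0.833), while Ppara (2.21), Ppard (1.89), Pparg (1.91) and Cpt1a (2.37) were above normal mucosa. Macrophage markers stood at 2.35 to 2.81 and endothelial markers at 1.43 to 1.73 in the same arrays, beside the rise of Angptl4 (2.72, 3.70 and 3.41) and Plin2 (0.65, 0.67 and 1.11), and their part in it was not tested.

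Other genes of the pathway were examined in inflamed mucosa by list. Of 15 further mitochondrial fatty acid oxidation genes 10 fell and 0 rose, with Hadh at -2.08, Acads at -1.16 and Acadm at -1.14 (median of the list -0.58). Of 8 peroxisomal and omega oxidation genes 4 fell and 0 rose, with the bifunctional enzyme Ehhadh at -1.70, Abcd3 at -1.07 and Acot8 at -0.81. Of 11 receptor partners and coregulators 5 fell, among them Ppargc1b at -2.79, the corepressor Nrip1 at -1.22 and the Mediator subunit Med1 at -0.69, and 1 rose, Rxra at 0.34. Of 10 PGC-1 partners and mitochondrial genes 6 fell and 0 rose, with citrate synthase Cs at -1.31, Idh3a at -1.17 and the receptor Esrra at -1.06. Of 10 genes of the pyruvate dehydrogenase complex 6 fell, with the phosphatase Pdp2 at -1.50, the kinase Pdk1 at -1.01 and Dlat at -0.71, and 1 rose, Pdk3 at 0.68. Each of these shares is read against 24.3% of all genes lower and 22.6% higher, and scaling to the epithelial markers raises every value by about 3.10.

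Genes of lipid storage and uptake went in both directions. Of 11 lipid droplet and lipase genes 5 rose and 1 fell, with lipoprotein lipase Lpl at 4.33, G0s2 at 2.87 and Abhd5 at 1.21 (limma adjusted p = 1.18e-04, 0.00202 and 1.62e-04). Of 13 genes of fatty acid uptake, activation and binding 4 rose and 5 fell, with the acyl-CoA synthetase Acsl4 at 2.63, its relative Acsl3 at -2.59 and the enterocyte binding protein Fabp2 at -4.21. The background in inflamed mucosa is 22.6% of all genes higher and 24.3% lower here too, and these counts are read against it. Of 3 relatives of Angptl4 that were measured 0 were called (limma). Fewer genes of these lists were called in the later stages. Over all genes 2.61% were higher and 3.08% lower in LGD, and 0.621% and 0.52% in HGD at 6 weeks. In HGD at 8 weeks these shares were 4.84% and 6.42%, and in carcinoma 0.326% and 0.575%. Of 8 peroxisomal and omega oxidation genes 2 fell and 0 rose, both in LGD and in HGD at 8 weeks. Of 15 mitochondrial oxidation genes 1 fell in LGD and 2 in HGD at 8 weeks, and 0 rose. In HGD at 6 weeks 1 of 11 lipid droplet and lipase genes rose, and no gene of the other pathway lists was called. Acsl4 was called higher in LGD (1.05), HGD at 8 weeks (1.02) and carcinoma (1.24), Lpl in LGD (2.52) and HGD at 8 weeks (2.47), and Ehhadh was lower in LGD (-1.06) and HGD at 8 weeks (-1.03). Ppargc1b was lower in HGD at 8 weeks (-2.19, limma adjusted p = 0.00799), and Acadm there at -0.76 (0.0146).

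**Figure D5:**
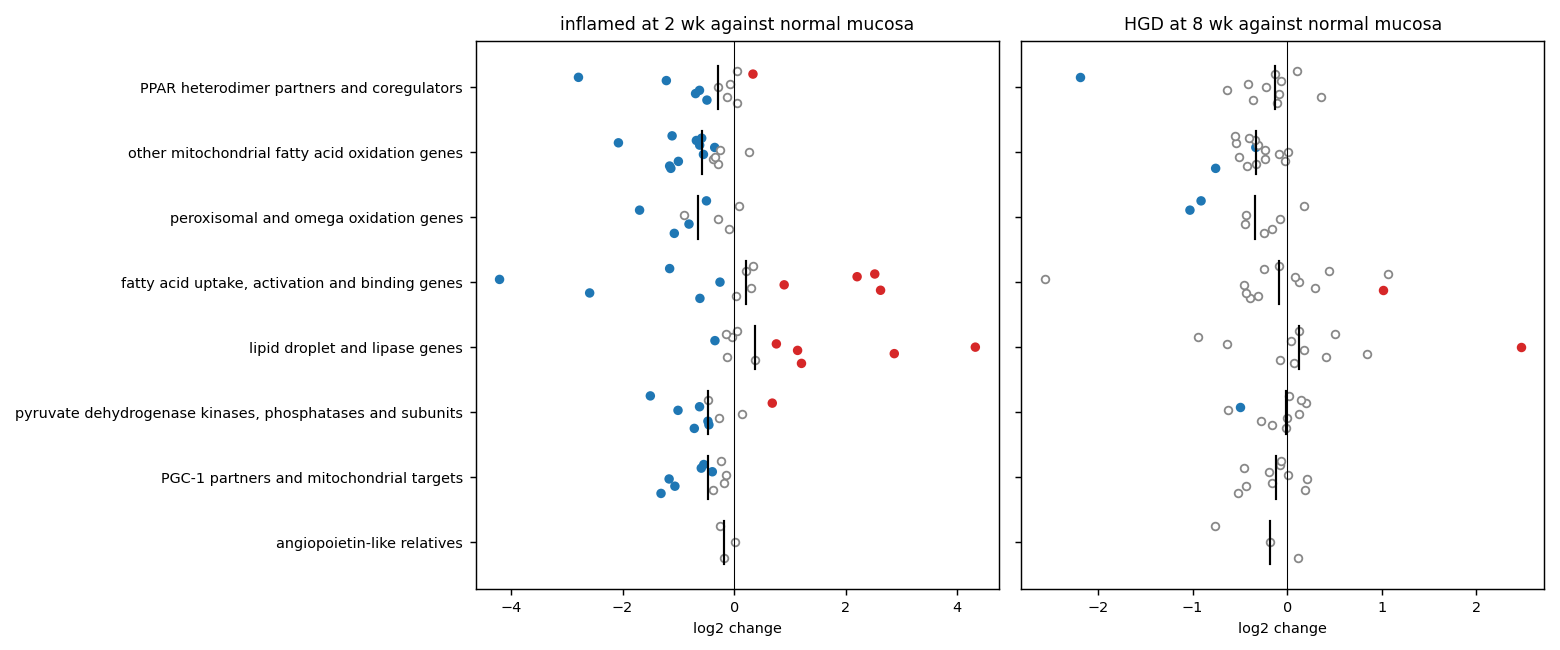
Log2 change (x axis) of the genes of each list (y axis) in inflamed mucosa (left) and HGD at 8 weeks (right) against normal mucosa, filled red (higher) or blue (lower) where limma's adjusted p is under 0.05 and open otherwise, with the list median as a bar. In inflamed mucosa 10 of 15 mitochondrial oxidation genes are filled blue and 5 of 11 lipid droplet genes filled red, values that scaling to the epithelial markers would raise by 3.10, and few points are filled at 8 weeks.

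Across the 18 arrays the genes most like Ppard were Abcb1a (Pearson r = 0.97), Ppargc1b (0.97) and Nol4l (0.96), and those most like Ppargc1a were Gk5 (0.97), Trim2 (0.96) and Opa1 (0.96). Pparg was most like Arfip1 (0.95), Carhsp1 (0.94) and Sri (0.94), and Ppara most like Zan (0.93), Igdcc4 (0.91) and Rdh5 (0.91). Among the 10 genes themselves Ppara and Cpt1a had r = 0.90, Angptl4 and Plin2 0.86, and Ppargc1a and Angptl4 -0.90. The points share the 6 groups and the inflamed arrays weigh in all of these values, so they are given as a description.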

How the data were processed

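Biotin-labelled cRNA from 18 colorectal samples was hybridised to Affymetrix Mouse Genome 430 2.0 arrays. The deposited values are linear intensity per probe set, and MAS5 is named per the submitters' processing notes, with its role and settings not given in the sources used here. Array medians lay between 55.7 and 57.8, so no further scaling was applied. Of 45101 probe sets, the 64 controls and any annotated to no gene or to several were not used. Probe sets above the table median on at least 3 of 18 arrays were kept, and a gene was represented by its kept probe set with the highest mean. Signals were taken to log2 after adding 16 and modelled in limma 3.58.1 (R 4.3.3), with every array in 1 model with 1 mean per group and an intensity trend (12 residual degrees of freedom), p-values being 2-sided and Benjamini-Hochberg adjusted over 12877 genes at 0.05. The fit was tested on simulated data. The 5 stages were compared with normal mucosa and 5 comparisons made between stages. Members and gene lists were chosen with earlier results of these data known. All 10 members are named, with up to 3 genes per list with the largest change among those called, and the 3 genes most correlated with each receptor and Ppargc1a; Rxra, Pdk3, Lipe, Pck1, the marker genes and the genes named for later stages were chosen after their values were seen. Alternatives were the pseudocount, the filter, quantile or median scaling, the choice of probe set, the trend, the arrays fitted, a replicate block, single arrays left out and, chosen after seeing the data, scaling to the mean of the general epithelial markers and the other probe sets.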

Additional observations from a re-analysis of the deposited data

Results flagged for a closer look

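In 12 cases a gene's change from normal mucosa differed between stages, by limma's test of one stage against another at an adjusted p under 0.05. All 12 come from LGD and HGD at 8 weeks against inflamed mucosa, where 4677 and 5065 of all 12877 genes were called. In a fit of the compared groups alone the Pparg call in LGD and both Acadl calls were lost. With single arrays left out the Pparg call in HGD at 8 weeks and both Acadl calls were lost. Against inflamed mucosa LGD was higher by 1.22 for Pparg, 2.36 for Ppargc1a and 0.65 for Acadl, and HGD at 8 weeks by 0.88, 2.37 and 0.76 for the same genes. LGD was lower by -0.52 for Acaa2, -2.40 for Angptl4 and -0.90 for Plin2, and HGD at 8 weeks by -0.65, -2.82 and -0.87. All values are log2 changes.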

How the results depend on the processing

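The genes called against normal mucosa include Ppara in every stage, and its probe set passed the filter only through its normal arrays. The main counts of genes called against normal mucosa were 7 in inflamed mucosa, 3 in LGD, 1 in HGD at 6 weeks, 4 in HGD at 8 weeks and 1 in carcinoma. With single arrays left out they ran from 7 to 8, 1 to 4, 0 to 1, 3 to 4 and 1 to 2; LGD went to 1 without normal replicate 2, HGD at 6 weeks to 0 without normal replicate 2, HGD replicate 1 or replicate 2, and carcinoma to 2 without carcinoma replicate 1. With only the arrays of the groups compared they were 1 in LGD, 3 in HGD at 6 weeks and 2 in HGD at 8 weeks. That fit also ended the calls against inflamed mucosa of Pparg in LGD (adjusted p = 0.0524) and of Acadl in LGD (0.104) and HGD at 8 weeks (0.0673). Of all genes it called 50 in place of 733 in LGD, 1633 in place of 147 in HGD at 6 weeks, 761 in place of 1450 in HGD at 8 weeks and 529 in place of 116 in carcinoma. The main fit did not pair arrays by replicate number. Between groups, deviations of same-numbered arrays from their group means correlated at -0.46 to 0.33, over 0.1 in 11 of 45 pairs. For differently numbered arrays the range was -0.39 to 0.38, over 0.1 in 26 of 90 pairs. With the replicate block the counts against normal mucosa were again 7, 3, 1, 4 and 1, Pdk4 was also called in LGD against inflamed mucosa (adjusted p = 0.045), and all genes called went to 31 in HGD at 6 weeks and 44 in carcinoma. Scaling each array to the general epithelial markers left 0 members called against normal in LGD, HGD at 6 weeks, HGD at 8 weeks and carcinoma. Of all 12877 genes it called 50, 57, 91 and 46 in these stages. Its pooled spread includes the inflamed arrays, whose marker means differ most, and why the calls were lost was not tested. The values in LGD were -0.84 for Ppara, -0.69 for Cpt1a and -0.53 for Acaa2 (main -0.90, -0.75 and -0.59). In HGD at 8 weeks they were -0.47 for Ppara, -0.70 for Ppard, -0.34 for Cpt1a and -0.42 for Acaa2 (main -0.77, -1.0, -0.64 and -0.72). Ppara was -0.48 in HGD at 6 weeks and -0.39 in carcinoma (main -0.56 and -0.63). This scaling called 12296 of 12877 genes in inflamed against normal mucosa, where it raises every gene by 3.10. It called 12454 in LGD and 12319 in HGD at 8 weeks against inflamed mucosa. It turned the sign in inflamed against normal mucosa for Ppara (2.21), Ppard (1.89), Pparg (1.91), Cpt1a (2.37), Acadl (2.64) and Acaa2 (3.03). It also turned LGD against inflamed mucosa for Ppard (-2.45), Pparg (-1.81), Ppargc1a (-0.67) and Acadl (-2.38), and HGD at 8 weeks against inflamed mucosa for Ppara (-2.67), Ppard (-2.59), Pparg (-1.91), Ppargc1a (-0.43), Cpt1a (-2.71) and Acadl (-2.03). The 28 called changes kept their direction and call under both pseudocounts, no filter, quantile and median scaling, no trend and the block.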
